A study of Mus musculus with 10 samples.

Results

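This account covers 39 genes of DNA repair and of the DNA damage checkpoint, chosen by name from textbook repair pathways and read on 10 two-colour Agilent arrays of mouse colon RNA. They are 39 of 25160 named genes on the array and are represented by 101 probes. By role they were 1 direct reversal enzyme (Mgmt), 9 homologous recombination genes, 3 sensors of double-strand breaks, 5 Fanconi anemia genes, 3 end joining genes, 6 genes of base excision and single-strand break repair, 2 mismatch repair genes, 4 nucleotide excision repair genes and 6 checkpoint genes. The series asks how p53 bears on the return of the colon from injury to rest.

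The tissue arrays compared 2 KO with 2 WT male mice, each KO mouse paired with 1 WT mouse and each pair hybridised in both dye orientations. The KO mice carried Axin2CreERT2, a recombinase that tamoxifen switches on in cells expressing Axin2, and floxed Trp53, and both genotypes had 2% dextran sodium sulfate (DSS, a chemical that damages the gut lining) over 5 to 7 days, with tissue taken 2 months later. Whole colon tissue therefore held many cells outside the reach of that recombinase, and the labels give neither the age of the mice nor the Cre status of the WT mice. The organoids, epithelial cultures grown from colon crypts, came in 2 replicates each of WT, KO and KOWI. KO organoids derived from VillinCreERT2 floxed Trp53 mice and were given 800 nM 4OH-tamoxifen for 2 days. They were then selected with Nutlin-3A (10 mM in the labels), a drug that halts cells with working p53. WT and KO were kept in full medium with 0.328 nM surrogate Wnt and 3 µM CHIR-99021, a GSK3 inhibitor that turns on Wnt signalling. The labels' medium also holds 25% R-spondin, which strengthens Wnt signalling, 100 ng/ml noggin and 50 ng/ml EGF. KOWI are KO organoids called Wnt-independent in the labels and grown without both the surrogate Wnt and CHIR-99021. Between KOWI and KO, the medium, adaptation to it and selection in it cannot be told apart. Whether WT organoids also had the tamoxifen and the Nutlin-3A is not stated here. If they did not, loss of Trp53 cannot be told apart from those treatments in KO or KOWI over WT. No label names the mouse behind an organoid replicate. The p-values thus reflect the spread among the samples at hand, and part of that spread may be technical.

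Cells mend a broken DNA molecule by homologous recombination or by end joining. Recombination needs a matching template, such as the sister chromatid, and end joining does not. Smaller lesions are cut out as bases, nucleotides or mismatches, and the Fanconi anemia proteins deal with strands tied together by crosslinks. The kinases ATM and ATR sense damage and act through CHEK2 and CHEK1, and p53 is one of the proteins they activate. Many recombination and Fanconi genes, and Chek1, are transcribed mostly in dividing cells, with E2F factors among their regulators, and the colon epithelium renews itself from dividing crypt cells.

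Per channel, 44.6% to 59.1% of the spots stood well above background. The scanner software marked 0.808% to 4.41% of spots as outliers on the 6 arrays without KOWI, and 13.7% to 16.3% on the 4 arrays with it, and these spots were left out. Of the 39 genes, 36 could be tested in tissue and 31 in organoids. To be tested, a gene needed 1 group or more with all its channels well above background. In tissue Xrcc2 and Rad9a were not, Rad9a with 3 of 4 WT channels, and Xrcc4 lost an array to an outlier spot. In organoids Palb2, with 3 of 4 channels in each group, and Fancd2, with 2 of 4, were not, and Rad50, Xrcc4, Xrcc6, Xrcc1, Ercc2 and Xpa lost 2 or 3 of their 6 arrays. Trp53 itself read -1.07 and -0.59 on the log2 scale in KO over WT organoids (adjusted p = 0.572 in limma) and -0.46 and 0.04 in the mouse pairs (adjusted p = 0.616); whether its probe lies in the deleted part was not checked. Of 10 p53-induced genes tested in organoids, none was positive in KO over WT (median -0.62) or in KOWI over WT (median -0.40), and in tissue 8 of 13 were. Of markers of other cell types, 0 of 8 fibroblast and 0 of 5 endothelial genes could be tested in organoids, beside 2 of 7 smooth muscle, 2 of 8 skeletal muscle, 1 of 12 leukocyte and 1 of 7 neuron and glia genes. Of these Uchl1, the neuron and glia gene, was called higher in KOWI over WT (1.06, adjusted p = 0.0413 in limma).

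The probes behind the main results are read as follows. Mgmt, which removes alkyl groups from guanine, was read at chr7:144319790-144319849 (mm9, plus strand). Chek1, the kinase that holds the cell cycle when replication stalls, was read at chr9:36517425-36517484 (mm9, minus strand). Bard1, the partner that stabilises Brca1, was read at chr1:71074192-71074251 (mm9, minus strand). All 3 are assigned to RefSeq mRNAs, and the exon or UTR they fall in was not determined here. Each also has a second, dimmer probe, which for Mgmt and Bard1 was not well above background.

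The promoters of the same 3 genes are shown because only these members were called at an adjusted p under 0.05 in limma in any comparison. Chek1 and Bard1 were called higher and Mgmt lower, in KOWI over WT organoids. Each run spans 250 bases before to 50 bases after the annotated start of transcription, 5′ to 3′ on the strand of the gene, from RefSeq on GRCm38.p6. Capitals mark matches on either strand to TTCCCGC, an E2F-like motif, to the CHR motif TTTGAA or its variant TTCGAA, to the E2F-like variant TTGGCGC, and to the CCAAT box.
Chek1, chr9:36726609-36726908, minus strand: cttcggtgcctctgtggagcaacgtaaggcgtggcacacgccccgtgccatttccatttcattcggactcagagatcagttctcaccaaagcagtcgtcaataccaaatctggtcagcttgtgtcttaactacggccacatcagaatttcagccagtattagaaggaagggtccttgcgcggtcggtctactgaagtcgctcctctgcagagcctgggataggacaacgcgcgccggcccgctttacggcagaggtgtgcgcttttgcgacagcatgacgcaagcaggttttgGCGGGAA
Bard1, chr1:71102923-71103222, minus strand: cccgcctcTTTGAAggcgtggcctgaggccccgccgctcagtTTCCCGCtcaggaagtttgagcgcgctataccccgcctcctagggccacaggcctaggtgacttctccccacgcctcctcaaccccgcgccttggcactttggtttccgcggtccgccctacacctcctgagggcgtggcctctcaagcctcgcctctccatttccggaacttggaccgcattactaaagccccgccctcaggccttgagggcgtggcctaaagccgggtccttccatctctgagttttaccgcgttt
Mgmt, chr7:136894336-136894635, plus strand, the first of 2 listed starts: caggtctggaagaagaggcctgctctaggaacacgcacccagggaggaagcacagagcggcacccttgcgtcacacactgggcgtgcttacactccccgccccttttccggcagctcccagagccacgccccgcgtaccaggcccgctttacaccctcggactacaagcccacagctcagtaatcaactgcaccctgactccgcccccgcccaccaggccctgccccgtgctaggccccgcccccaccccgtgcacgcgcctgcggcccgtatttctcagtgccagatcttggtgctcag

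In the Chek1 promoter the capitals are the E2F-like motif on the opposite strand, from 43 bases after the start. In the Bard1 promoter they are the CHR motif, at -242, and the E2F-like motif, at -208. The Mgmt promoter holds none of the 5 motifs, and nor does its second start. Promoters were matched for 34 of the 39 genes. TTCCCGC lay in the promoters of 12 of these 34 (35.3%), against 4.6% of all 32851 promoters of the same length, and 5.96% of the 12208 promoters with a G and C share of 52% to 65.7%, the range in which most members lie. The 12 were Atm, Bard1, Brca2, Chek1, Chek2, Ercc5, Fancg, Fanci, Msh6, Rad51ap1, Xrcc4 and Xrcc6. The CCAAT box lay in 22 of 34 (64.7%, against 37.4%), TTGGCGC in 4 (11.8%, against 2.45%), TTCGAA in 2 (5.88%, against 1.56%) and TTTGAA in 2 (5.88%, against 17.9%). TTCCCGC overlaps none of the other motifs in these 3 promoters. A match is a run of letters, not evidence that a factor binds there.

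**Figure D1:**
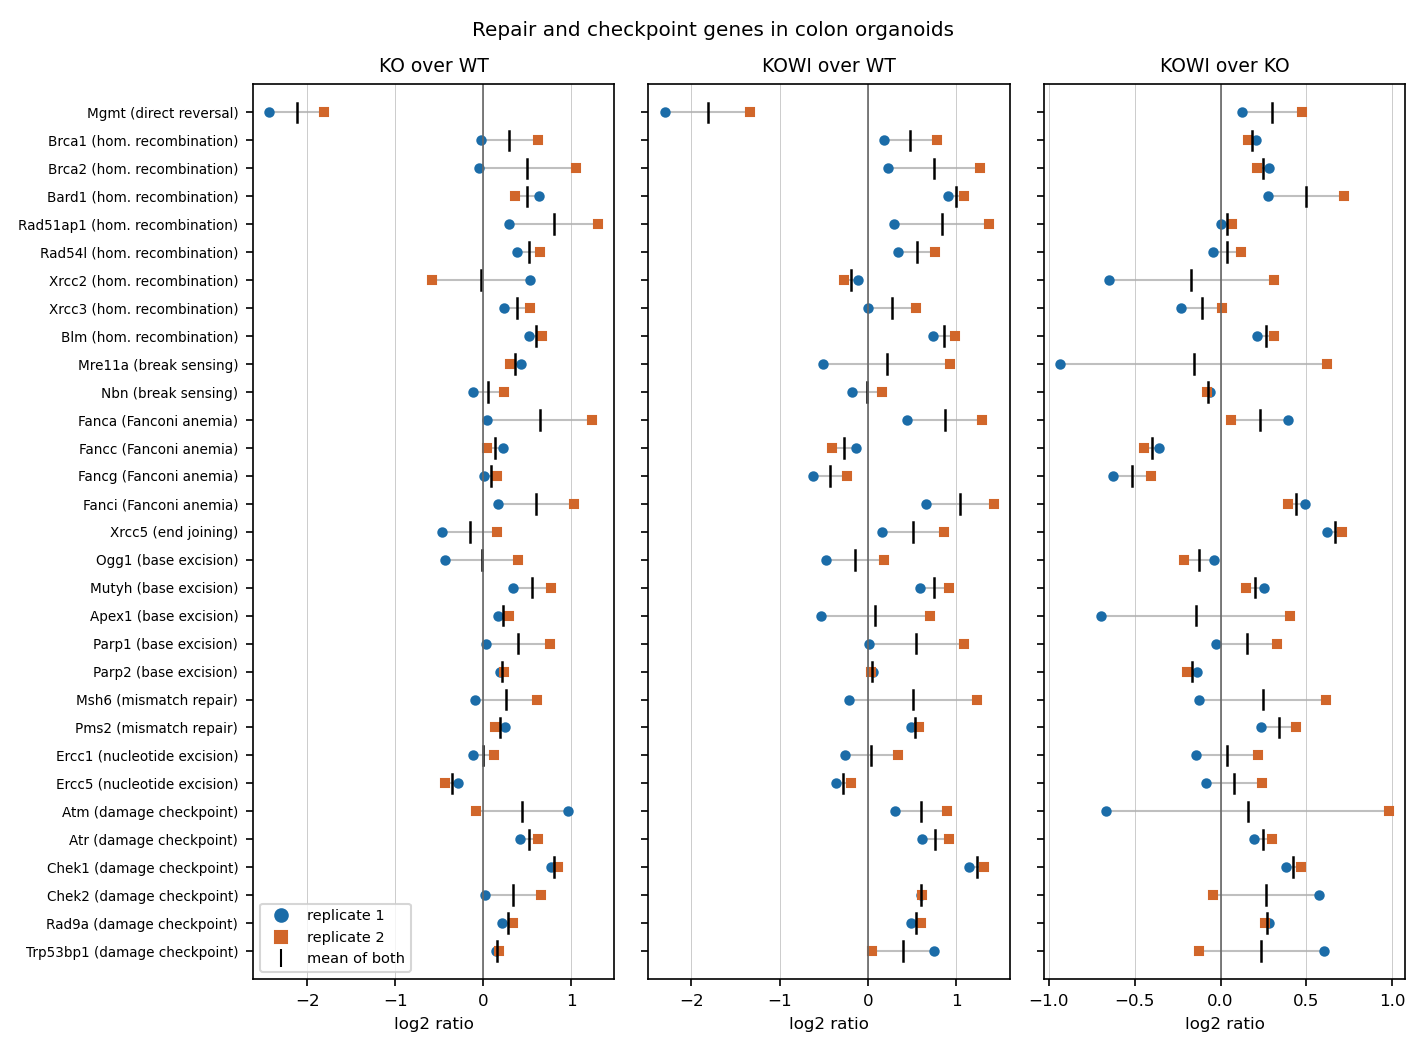
Log2 ratios (x axis) of the 31 repair and checkpoint genes tested in colon organoids (y axis, with their pathway), in 3 panels for KO over WT, KOWI over WT and KOWI over KO; circles are replicate 1, squares replicate 2 and ticks their mean. Mgmt lies below -1 in both replicates of KO and of KOWI over WT, and most other members lie to the right of 0, further in replicate 2 than in replicate 1.

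In KOWI against WT organoids, 3 of the 31 members tested passed the threshold, an adjusted p of 0.05 in limma: Chek1 and Bard1 rose and Mgmt fell. Across all 9888 genes tested, 3.27% were called higher and 2% lower, and 5.27% either way, so 2 higher and 1 lower of 31 is near the background. By the fitted ratios Mgmt was 3.53-fold lower, Chek1 2.35-fold higher and Bard1 2.00-fold higher. KOWI over WT was positive for 24 of 31 members, and in both replicates for 20, with a median log2 ratio of 0.51. Over all genes it was positive in 51.8% and in both replicates in 32.6%, with a median of 0.01. It was negative in both replicates for 5 members (29.7% of all genes), namely Mgmt, Xrcc2, Fancc, Fancg and Ercc5; Xrcc2 is no longer among them when its outlier spot is kept. Without WT replicate 2, 20 of 29 members were positive with a median of 0.22 (49.9% of all genes were positive). It reached 1 on the log2 scale in both replicates for Mgmt and Chek1 (5.06% of all genes did so). At an unadjusted p under 0.05 in limma, 12 members were higher and 1 lower, where all genes gave 13.9% and 9.06% (23% either way). With the arrays treated as if independent, 15 of 25 members were higher and 3 lower, against 43% of all genes called.

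The log2 intensity of Mgmt was 9.64 and 9.71 in the WT samples, 7.14 and 7.66 in KO and 7.61 and 7.66 in KOWI, averaged over the arrays of each sample. Both WT samples lay above all 4 others. Mgmt read -2.30 in replicate 1 and -1.33 in replicate 2 of KOWI over WT on the log2 scale. The mean was -1.82 (SE 0.26, n = 2, adjusted p = 0.0288 in limma). The 2 arrays that set KOWI directly against WT read -1.68, with KOWI in Cy5, and -2.02, with KOWI in Cy3. Each of these arrays held replicate 1 of 1 group and replicate 2 of the other, so ratios within a replicate number come from the fit. Both fitted ratios and both arrays were low. By the processed intensity the mean was -2.52. The level of Mgmt lay below that in WT by a like amount in KO organoids, described further on.

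The log2 intensity of Chek1 was 8.36 and 7.09 in WT replicates 1 and 2, 8.67 and 8.23 in KO and 9.14 and 8.13 in KOWI. WT replicate 2 was the lowest, well above background in 1 of its 2 channels, and the groups overlapped. The ratios, taken within replicate number, were 1.15 and 1.32 in KOWI over WT, with a mean of 1.23 (SE 0.16, n = 2, adjusted p = 0.0253 in limma). The single arrays were far apart: KOWI over WT was 0.15 with KOWI in Cy5 and 1.95 with KOWI in Cy3. In every organoid group replicate 1 was labelled in Cy3 and replicate 2 in Cy5, and the part of the dye cannot be told apart from that of the replicate. The fit takes out that shared offset, and without the replicate term the adjusted p of Chek1 was 0.218. The second Chek1 probe read 0.26.

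The log2 intensity of Bard1 was 11.08 and 10.30 in WT, 11.13 and 10.95 in KO and 11.72 and 10.84 in KOWI. These groups overlapped too, with each replicate 2 below its replicate 1, and the group means of 10.69 in WT and 11.28 in KOWI lay closer than the fitted ratio. Within replicate number KOWI over WT read 0.91 and 1.09, with a mean of 1.00 (SE 0.19, n = 2, adjusted p = 0.0465 in limma). Its single arrays, too, were unequal, at 0.27 with KOWI in Cy5 and 1.26 with KOWI in Cy3, and without the replicate term its adjusted p was 0.186. For Mgmt it was 0.0266 without that term. The offset between replicate 2 (Cy5) and replicate 1 (Cy3), averaged over the 3 organoid groups, was -0.90 for Chek1, -0.61 for Bard1 and 0.21 for Mgmt. It was negative for 27 of the 31 members (87.1%, median -0.28) and for 60.5% of all genes (median -0.06). The largest offsets among members after that of Chek1 were those of Brca2 (-0.84), Fanci (-0.79) and Rad51ap1 (-0.78).

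**Figure D2:**
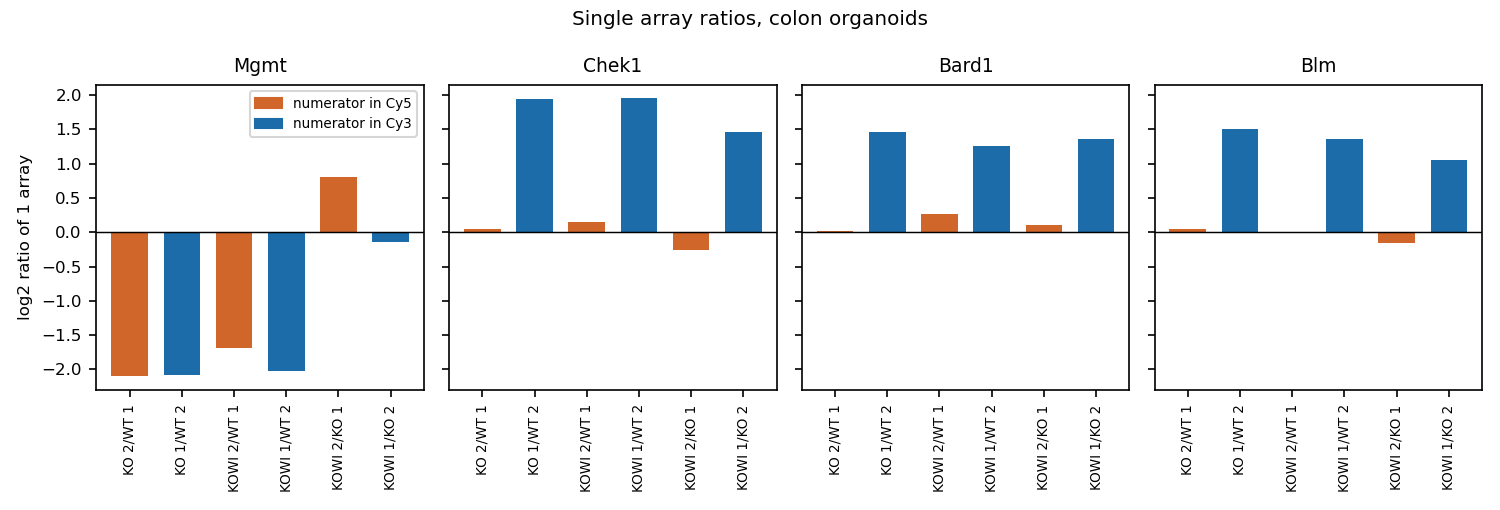
Log2 ratio of each of the 6 organoid arrays (bars, y axis) for Mgmt, Chek1, Bard1 and Blm; labels on the x axis give the numerator and denominator samples with their replicate number, and colour gives the dye of the numerator. Mgmt is low against WT in both dyes, whereas the ratios of Chek1, Bard1 and Blm against WT lie between 0.00 and 0.27 with the numerator in Cy5 and between 1.26 and 1.95 with it in Cy3.

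The 3 calls depended on the samples and settings. Mgmt lost its call without KO replicate 2 (adjusted p = 0.0800), KOWI replicate 1 (0.0754), KOWI replicate 2 (0.0869) or WT replicate 1 (0.175), and kept it without KO replicate 1 or WT replicate 2. Chek1 kept its call only without KO replicate 1 and had adjusted p-values of 0.125 to 0.304 in limma without KO replicate 2, KOWI replicate 1, KOWI replicate 2, WT replicate 1 or WT replicate 2. Bard1 lost its call without any 1 of the 6 samples (adjusted p = 0.149 to 0.597). All 3 kept their direction in each of these fits. By the authors' log2 ratios Chek1 read 1.95, by the processed intensity 1.85, and by the median of its probes 0.74.

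Just outside the threshold stood Blm, the helicase that undoes recombination intermediates, at 0.86 (adjusted p = 0.0507 in limma), and Atr at 0.77 (0.0679). Mutyh, which removes adenine paired with oxidised guanine, was at 0.75 (0.0843), and Fanci, a subunit of the clamp that marks crosslinks, at 1.04 (0.0853). The fitted ratios of all 4 were positive in both replicates. The second Mutyh probe above background had a mean of only 0.16.

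By pathway, homologous recombination was positive for 7 of 8 members tested in KOWI over WT, with a median of 0.65. Its replicates differed, with a median of 0.26 in replicate 1 and 0.88 in replicate 2. Rad51ap1 read 0.30 and 1.37. Brca2, a breast cancer susceptibility gene of this pathway, read 0.23 and 1.27. Brca1, which promotes the resection of broken ends, read 0.18 and 0.78. In all 3 the replicate 2 ratio was by far the larger. Unequal too were the 2 arrays that hold both groups, with KOWI in Cy5 and then in Cy3. They read -0.16 and 1.71 for Rad51ap1, -0.32 and 1.75 for Brca2 and 0.11 and 0.82 for Brca1. Rad54l, a motor protein of strand exchange, read 0.34 and 0.76, and Xrcc3 0.01 and 0.54. Xrcc2 read -0.11 and -0.27, from 5 of its 6 arrays, and was the only recombination gene below 0. With the outlier spot kept it read 0.18 and -0.14, a mean of 0.02.

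Of the Fanconi genes, Fanci read 0.65 and 1.42 and Fanca, a scaffold of the core complex, 0.44 and 1.29 from 5 arrays. Fancc and Fancg, also of the core complex, lay the other way: Fancc read -0.14 and -0.40 and Fancg -0.62 and -0.24. By these probes the family was split, with 2 members positive and 2 negative in both replicates. The second Fancc probe above background read 0.08. On the 2 arrays that hold both groups Fanci read -0.03 with KOWI in Cy5 and 1.87 with KOWI in Cy3. Fancc and Fancg were below 0 on both of those arrays. The fitted ratios of all 6 checkpoint genes were positive in both replicates (median 0.60). Besides Chek1 and Atr these included Chek2 (0.60 and 0.61) and Rad9a, a part of the clamp loaded at damage (0.49 and 0.60). In WT replicate 2, however, Rad9a was well above background in 0 of 2 channels. The second Rad9a probe above background had a mean of -0.11. Atm read 0.30 and 0.90, from 5 arrays, and Trp53bp1, which guards broken ends, 0.74 and 0.05. The 2 arrays that hold both groups were less even. With KOWI in Cy5 and then in Cy3, they read -0.17 and 1.56 for Chek2. For Atr they read 0.00 and 1.25 and for Rad9a 0.13 and 1.00, and Atm kept 1 of them, at 0.21. For Trp53bp1 the intensities go against the fitted ratios: averaged over each sample's arrays, its log2 intensity was 14.03 and 13.94 in WT and lower, at 13.86 and 13.20, in KOWI. The 2 arrays that hold both groups read 0.03 and 0.85 for KOWI over WT, so no direction is drawn for this gene. Its probe is assigned to an Ensembl transcript and had a mean log2 intensity of 13.96. A far dimmer RefSeq probe above background, at 8.62, had a mean ratio of 0.31.

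The break sensors and the base excision genes had no common direction. Mre11a, a nuclease of the sensor complex, read -0.51 and 0.93 and Nbn, its partner, -0.18 and 0.16. Apex1, which cuts abasic sites, read -0.53 and 0.70, and Msh6, which finds mismatches, -0.22 and 1.23 from 5 arrays. These replicates had opposite signs, and Mre11a and Apex1 were the only members tested in organoids with a mean log2 intensity over 14. The oxidised-guanine glycosylase Ogg1 (-0.47 and 0.19, from 5 arrays) also differed in sign between replicates, while Parp1, a sensor of strand breaks, read 0.01 and 1.09 from 5 arrays and Parp2 0.05 and 0.04. Pms2, the mismatch endonuclease, was alike in both at 0.49 and 0.58. Xrcc5 (Ku80), the only end joining gene tested, read 0.16 and 0.87. The nucleotide excision genes Ercc1 and Ercc5 had means of 0.04 and -0.28. With outlier spots kept, the 6 members lost to them had means from -0.38 (Xpa) to 0.53 (Ercc2), and none was called.

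Beside these ratios, lists of proliferation genes differed between replicates in the same direction. The median KOWI over WT ratio of 17 S phase genes was 0.02 in replicate 1 and 1.01 in replicate 2, and that of 11 mitosis genes -0.01 and 1.06; for the 31 members it was 0.18 and 0.76. For 27 of 31 members the replicate 2 ratio was above that of replicate 1, as it was for 56.6% of all genes. Colonocyte markers, of absorptive cells, were negative for 7 of 7 genes tested (median -1.58, 6 of them called), and stem cell markers positive for 5 of 5 (median 1.79, 2 called). The part of division or of cell state in the members' ratios was not tested, and a change in the share of a cell type cannot be told apart from a change of RNA per cell in these bulk samples.

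**Figure D3:**
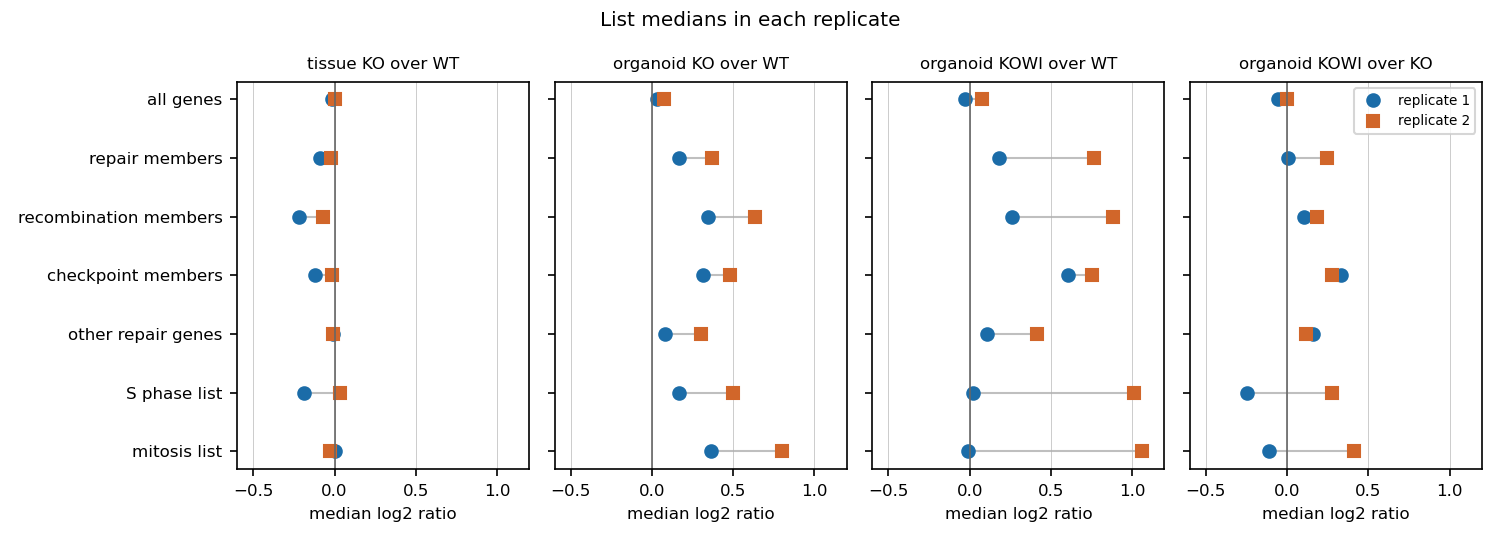
Median log2 ratio (x axis) of gene lists (y axis) in replicate 1 (circles) and replicate 2 (squares) of the 4 comparisons; for tissue a replicate is a mouse pair. In KOWI over WT the S phase list runs from 0.02 to 1.01 and the repair members from 0.18 to 0.76, while the checkpoint members lie at 0.60 and 0.75.

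Of 99 other repair genes listed by pathway, 70 were tested in organoids. In KOWI over WT 56 were positive (median 0.24; 51.8% of all genes were positive), and limma called 6 higher (3.27% of all genes) and 0 lower. At an unadjusted p under 0.05, 17 were higher and 0 lower, where all genes gave 13.9% and 9.06%. The 6 that rose were spread over 5 pathways. Wee1, the kinase that restrains entry into mitosis, rose by 1.69 and Mdc1, which gathers repair proteins at breaks, by 1.35 (adjusted p = 0.0337 and 0.0269 in limma). Neil3, a glycosylase for oxidised bases, was at 1.48 (0.0336) and Sfr1, of homologous recombination, at 1.30 (0.0299). Fancb, of the Fanconi core complex, was at 1.11 (0.0465), and Rev3l, the catalytic subunit of a translesion polymerase, at 0.95 (0.0465). In the other 3 comparisons limma called 0 of those tested (70 in organoids, 82 in tissue), with 6, 8 and 0 higher and 0, 0 and 1 lower at an unadjusted p under 0.05 in organoid KO over WT, KOWI over KO and tissue. All genes gave 4.01%, 6.94% and 7.64% higher there. The 6 kept their direction under every alternative, but each was called in only 2 to 4 of the 8 or 9 alternatives. By the median of its probes Rev3l read 0.47, and by the authors' log2 ratios Fancb read 1.75. Leaving out KO replicate 1 kept all 6 calls. Without KO replicate 2, KOWI replicate 2 or WT replicate 2 none was called, and without KOWI replicate 1 or WT replicate 1 only Wee1 was.

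In KO against WT organoids, both in full medium, no member passed the threshold in limma, and neither did any of the 9888 genes (0%). At an unadjusted p under 0.05 in limma, 7 members were higher and 1 lower (all genes gave 4.01% and 1.44%, 5.45% in all). The 7 were Chek1, Blm, Atr, Mutyh, Rad54l, Bard1 and Rad51ap1. For Mutyh the probe used had a mean of 0.55 and its second probe above background 0.11. With the arrays treated as if independent, limma called 7 of 25 members higher and 1 lower, where it called 8.97% of all genes. Positive ratios were seen for 26 of 31 members (61.1% of all genes), 20 of them in both replicates (37.8%), with a median of 0.30 beside 0.05 for all genes. Without WT replicate 2, 17 of 29 members were positive (55.2% of all genes) with a median of 0.15, and 10 members changed sign, Brca1, Brca2 and Parp1 among them.

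Mgmt had the largest ratio of any member in this comparison. It read -2.43 in replicate 1 and -1.81 in replicate 2 of KO over WT, with a mean of -2.12 (SE 0.26, n = 2, 4.34-fold lower, adjusted p = 0.231 in limma). The 2 arrays of KO against WT read -2.09 and -2.08 in opposite dyes. The probe was well above background in all 4 WT channels and in 3 of the 4 KO channels. Among all genes, 0.627% reached 1 on the log2 scale in both replicates with the same sign; Mgmt was the only member that did. By the processed intensity it read -3.49 and by the authors' log2 ratios -3.40. Without KO replicate 1 its ratio was -2.07 with an adjusted p of 0.0427 in limma.

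Chek1 came next by p, at 0.77 and 0.85 with a mean of 0.81 (SE 0.16, n = 2, adjusted p = 0.521 in limma). On single arrays KO over WT was 0.04 with KO in Cy5 and 1.94 with KO in Cy3, the same kind of imbalance as in KOWI. By the authors' log2 ratios its mean was 1.40, by the processed intensity 1.36, and by the median of its probes 0.54. Blm followed, at 0.52 and 0.67 (mean 0.60, adjusted p = 0.718 in limma). Its 2 probes above background read alike, at 0.60 and 0.52.

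This comparison shares its WT samples with KOWI over WT, so the 2 are not independent. The median log2 KO over WT was 0.50 for 8 recombination genes, 0.39 for 6 checkpoint genes, 0.36 for 4 Fanconi genes, 0.23 for 5 base excision genes and -0.18 for 2 nucleotide excision genes. The replicates differed most in favour of replicate 2 for Rad51ap1 (0.29 and 1.30), Brca2 (-0.05 and 1.05), Fanci (0.16 and 1.03) and Fanca (0.05 and 1.23, from 5 arrays). With its outlier spot kept Fanca read 0.42 and 0.56. Ercc5, which cuts on the 3′ side of a lesion, read -0.28 and -0.44 and was the only member besides Mgmt below 0 in both replicates (20.8% of all genes were). The S phase list had medians of 0.17 and 0.50 and the mitosis list of 0.36 and 0.80. Colonocyte markers were negative for 7 of 7 (median -0.60) and stem cell markers positive for 5 of 5 (median 0.73). Xrcc2 (0.54 and -0.58) and Atm (0.97 and -0.08), each from 5 arrays, were higher in replicate 1.

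In KOWI against KO organoids, limma called 0 members, while 0.172% of all genes were called higher and 0.253% lower (0.425% in all). At an unadjusted p under 0.05, 3 members were higher and 1 lower (all genes gave 6.94% and 7.25%, 14.2% in all), and with the arrays treated as if independent 5 of 25 were higher and 2 lower (28.3% of all genes were called). Ratios were positive for 22 of 31 members (43.9% of all genes), in both replicates for 14 (23.4%), and reached 1 in both for none (2.15%). Without KOWI replicate 2, 13 of 27 were positive (42.4% of all genes) with a median of -0.01. With all samples, ratios were higher in replicate 2 for 19 of 31 (53.1%). The 3 members with the smallest p were Xrcc5 at 0.62 and 0.71 (mean 0.66, SE 0.23, adjusted p = 0.285), Fancg at -0.63 and -0.40 (mean -0.52, SE 0.18, adjusted p = 0.286) and Bard1 at 0.28 and 0.72 (mean 0.50, SE 0.19, adjusted p = 0.317 in limma). Mgmt read 0.13 and 0.48 (mean 0.30, SE 0.26), so it was low in both KO groups. Fancc read -0.36 and -0.44, beside Fancg, but its second probe above background had a mean of -0.03. The fitted means of the 6 checkpoint genes were positive, from 0.16 to 0.42, but 3 of them had replicates of opposite sign. By intensity averaged over arrays, Trp53bp1 (14.22 in KO, 13.53 in KOWI) and Atr (11.69 and 11.64) lay the other way. Mre11a (-0.93 and 0.62), Atm (-0.66 and 0.98, from 5 arrays) and Apex1 (-0.70 and 0.41) spread the most between replicates.

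In KO against WT colon tissue after DSS, limma called 0 members and 0% of the 12785 genes tested. At an unadjusted p under 0.05, 0 members were higher and 2 lower (all genes gave 7.64% and 7.02%, 14.7% in all). Treating the 4 arrays as independent samples, it called 0 of 36 members and 4.6% of all genes. Positive ratios were seen for 11 of 36 members (48.9% of all genes), with a median of -0.08 beside 0.00 for all genes. Both mouse pairs were below 0 for 19 members and above 0 for 6, where all genes gave 34.7% and 32.3%. The ratios were small, from -0.32 (Chek1) to 0.50 (Mgmt).

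**Figure D4:**
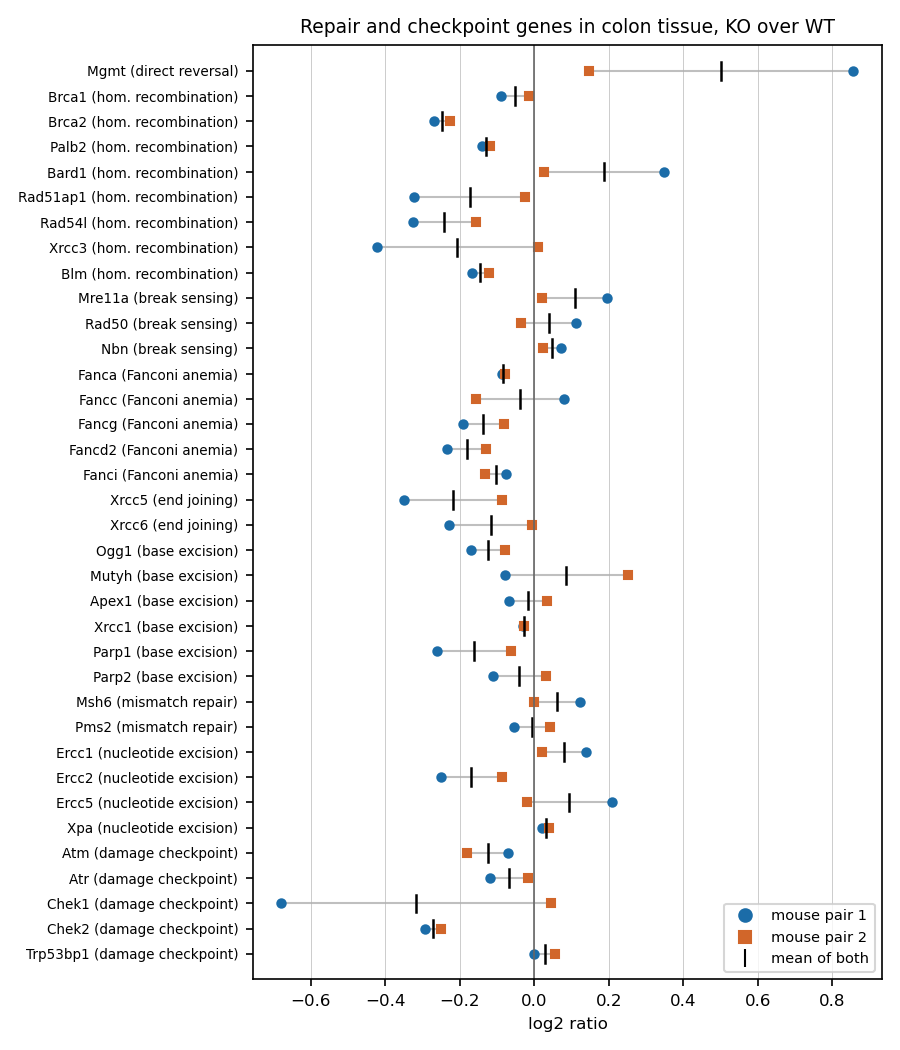
Log2 KO over WT ratios (x axis) of the 36 members tested in colon tissue (y axis, with their pathway), for mouse pair 1 (circles), mouse pair 2 (squares) and their mean (ticks). Of 8 recombination genes 6 lie below 0 in both pairs, and pair 1 lies further from 0 than pair 2 for Mgmt (0.86 and 0.15) and Chek1 (-0.68 and 0.05).

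The 3 members with the smallest p were all lower in KO. Chek2 read -0.29 in pair 1 and -0.25 in pair 2 (mean -0.27, SE 0.06, n = 2, adjusted p = 0.301 in limma). In KO replicate 1 it was well above background in 1 of 2 channels. Its single arrays read -0.59 and 0.01 in pair 1 and -0.50 and -0.00 in pair 2, in each pair with the low value when KO was in Cy5. Brca2 read -0.27 and -0.23 (mean -0.25, SE 0.06, adjusted p = 0.321 in limma) and was below 0 on all 4 arrays. Rad54l read -0.32 and -0.16 (mean -0.24, SE 0.08, adjusted p = 0.370 in limma), also below 0 on all 4. Left without 1 mouse, and with channels fitted separately, Chek2 ran from -0.54 (without KO replicate 2) to -0.00 (without KO replicate 1), Brca2 from -0.43 to -0.07 and Rad54l from -0.37 to -0.11 under the same 2 omissions.

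The recombination genes had a tissue median of -0.16 with 1 of 8 positive (Bard1, 0.35 and 0.03), and the 5 Fanconi genes one of -0.10 with 0 positive. The 2 Ku genes, Xrcc5 and Xrcc6, were at -0.22 and -0.12. The 3 break sensors were at 0.04 to 0.11 and the 4 nucleotide excision genes at -0.17 to 0.09. Chek1 read -0.68 in pair 1 and 0.05 in pair 2, and its mean therefore rests on 1 pair. In the KO mouse of that pair it was well above background in 1 of 2 channels.

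Cell type markers moved too in the tissue. Epithelium markers were below 0 in both pairs for 12 of 12 genes (medians -0.17 in pair 1 and -0.10 in pair 2), stem cell markers had a median of -0.42 with 0 of 5 positive, and fibroblast markers were positive for 8 of 8 (median 0.22), smooth muscle for 7 of 7 (0.13) and skeletal muscle for 8 of 8 (0.38). The S phase list stood at -0.19 in pair 1 and 0.04 in pair 2. The part of cell make-up in the members' tissue ratios was not tested.

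Whether KO over WT differed between tissue and organoids was tested on the 4 replicate ratios. Both systems were read from 1 shared probe per gene. Of 29 members in that fit none passed the threshold in limma (0% of 8659 genes did), and 7 had an unadjusted p of 0.05 or less, where all genes gave 12.6%. For 10 of the 29 both tissue ratios lay on one side of 0 and both organoid ratios on the other, as they did for 17.8% of all genes in that fit. Mgmt had the largest difference, tissue minus organoid, at 2.62 (adjusted p = 0.196), with 0.86 and 0.15 in tissue against -2.43 and -1.81 in organoids. In tissue Mgmt was above 0 on all 4 arrays, from 0.14 to 1.03. Rad54l differed by -0.76 (adjusted p = 0.263), Atr by -0.58 (0.293), Chek1 by -1.13 (0.299) and Blm by -0.67 (0.354). The recombinases (Axin2CreERT2 and VillinCreERT2), the DSS injury, the medium and the cell types differ between the 2 systems and cannot be told apart.

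**Figure D5:**
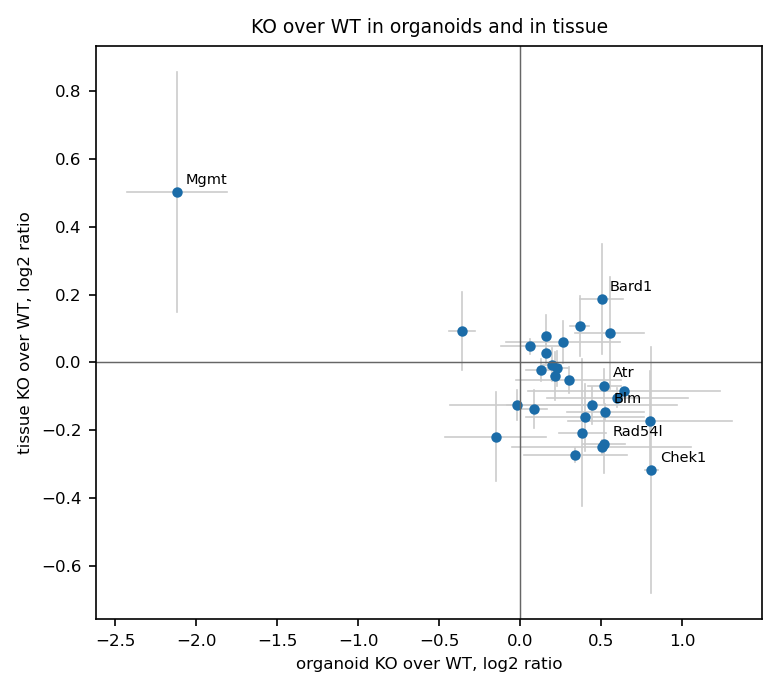
Mean log2 KO over WT ratio in tissue (y axis) against that in organoids (x axis) for the 29 members tested in both; grey lines run between the 2 replicates of each system. Mgmt stands alone at -2.12 in organoids and 0.50 in tissue, and most other members lie to the right of 0 and near or below 0 in tissue.

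Members that carry TTCCCGC in the promoter are set beside the rest here, with no test. In KOWI over WT organoids 8 of 10 with it and 15 of 18 without it were positive, with medians of 0.68 and 0.44. In KO over WT organoids it was 9 of 10 and 15 of 18 (0.47 and 0.26), and in tissue 3 of 11 and 6 of 22 (-0.13 and -0.05). Where a member had 2 probes above background that could be fitted, the probes had the same sign in 10 of 14 genes for KOWI over WT and in 11 of 14 for KO over WT. Brca1, Ogg1 and Rad9a had probes of opposite sign in both comparisons, and Fancc in KOWI over WT alone.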

How the data were processed

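RNA from 4 mice and 6 organoid samples was hybridised to 10 two-colour arrays. Per the file headers, the authors read spot intensity off the scans using Agilent Feature Extraction 12.2.0.7; mean and local background intensity were deposited without normalization, with probe coordinates on mm9. The deposited log10 ratio of the scanner software, Cy5 over Cy3, served only to check the scale and direction of the log2 table. A table of log2 ratios by probe was deposited as well, and limma is named in the submitters' processing notes; its centring is unknown, and its column medians ran from -0.00058 to 0.0171.

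Intensities were corrected with normexp (offset 50) and loess in R 4.3.3 with limma 3.58.1, outlier spots were set to missing, and spots of a probe were averaged. A gene was read from its brightest probe and tested if at least 1 group had that probe well above background in each of its channels. All-gene tests were limma (lmFit, eBayes) on 2 mouse-pair ratios in tissue, and in organoids on 6 sample values fitted by least squares to the loop of arrays, with group and replicate number as terms; values from 5 arrays are named. P-values were adjusted by Benjamini-Hochberg over all genes tested. The fits were also run on simulated data with planted changes, with a spread set to only a part of that between the arrays. That run checked the size and direction of the planted changes, and it does not bear on the rate of false calls here. Precision is limited by how few arrays there are.

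In tissue same-numbered mice shared their arrays. In organoids the deviations of same-numbered samples from their group means correlated at 0.215 (WT and KO), 0.168 (WT and KOWI) and -0.0173 (KO and KOWI), so pairing is not shown there, and the number cannot be told apart from the dye. In 1 tissue label the replicate number differs from the title; the title's was used.

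Members and lists were chosen with earlier results of these data known. Described one by one were members past the threshold, those at 1 or more (log2) in both replicates of a comparison, and the 3 of smallest p where a comparison had fewer than 3 of these; of other repair genes only those past the threshold. Alternatives were the processed intensity, median centring, outlier spots kept, no filter, other probe rules, arrays taken as independent, the authors' log2 ratios, no replicate block, and each sample left out.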

Additional observations from a re-analysis of the deposited data

How the results depend on the processing

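No alternative turned the sign of the members past the threshold or of smallest p in the comparison that singled them out. Of the other members, keeping outlier spots turned Xrcc2, Ogg1 and Nbn in KOWI over WT and Xrcc2 and Ogg1 in KO over WT. Median centring turned 5 in tissue, all with means of 0.08 or less there. Leaving out 1 sample turned 5 to 10 of 36 members in tissue, Chek1 (-0.32) among them. In organoids it turned 0 to 10 of 25 to 29 members in KO over WT, 2 to 5 in KOWI over WT and 2 to 7 in KOWI over KO. The largest mean so turned was 0.51 (Msh6, KOWI over WT). In tissue 0 members were called under every alternative and without any 1 mouse, and none differed between tissue and organoids under any alternative run. In organoid KO over WT the count of called members was 0 except with arrays taken as independent (8) and without a sample (0 to 1). In KOWI over KO it was 0 except with arrays taken as independent (7).

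The 3 members called in KOWI over WT became 0 with the processed intensity, with outlier spots kept and with the authors' log2 ratios, 1 with median centring (Mgmt), with no filter on dim probes (Chek1) and with no replicate block (Mgmt), and 18 with arrays taken as independent. Bard1 was not called in any of the fits without a sample, and a group left with 1 sample is assumed there to vary like the others. The causes were not tested. Over all genes the count called there, 521, became 132, 60, 4, 186, 226 and 3190 under these settings in the same order (388 with no replicate block), and 0 to 781 without a sample. In KOWI over KO the 42 became 0 with the processed intensity, outlier spots kept or the authors' ratios, 11 with median centring, 4 with no filter, 2103 with arrays taken as independent and 0 to 144 without a sample. In KO over WT 0 became 666 in organoids and 588 in tissue with arrays taken as independent, 865 in tissue with median centring, 1 in organoids with either other probe rule and 0 to 12 there without a sample. Over 9 alternatives the adjusted p ran from 9.19e-05 to 0.287 for Mgmt, from 0.000318 to 0.218 for Chek1 and from 0.00201 to 0.186 for Bard1. With no replicate block no call of a member changed other than those of Chek1 and Bard1. Signal near background or outlier spots kept 8 members from a test in organoids and 3 in tissue.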
